A study of Homo sapiens with 40 samples.

Results

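The genes described here encode the histones, the proteins around which DNA is wrapped, and comprise the replication-dependent H1, H2A, H2B, H3 and H4 genes together with a set of variant histone genes. Members were chosen by symbol. Protein-coding genes of the H1-1 to H1-6, H2AC, H2BC, H3C and H4C series were taken, and the variants H2AZ1, H2AZ2, H2AX, H3-3A, H3-3B, H1-10 and MACROH2A1 were added. This gave 72 members of the 60279 genes listed, of which 65 are replication-dependent (6 H1, 15 H2A, 18 H2B, 11 H3 and 15 H4 genes) and 7 are variants. Of the replication-dependent members, 53 lie on chromosome 6, 11 on chromosome 1 and 1 on chromosome 12. Another 4 genes of the annotation that match the symbols, H3C2, H3C3, H2AC18 and H2AC19, were not analysed here.

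The data are read counts per gene from single cells of T47D, a breast cancer cell line with luminal epithelial features, which came from 1 untreated culture at passage 10. Cells were carried through 3 plate-based full-length protocols: Genome & transcriptome sequencing (G&T), which separates the mRNA of a cell from its DNA, and the commercial kits SMART-seq HT (Takara) and NEBNext Single Cell/Low Input (NEB). The tables hold 13 G&T, 13 Takara and 14 NEB cells, and 11 of each were used. A protocol stands for 1 plate sequenced once, its effect and that of the run cannot be told apart, and it is 1 sample, so that no test between protocols was made.

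Reads on genes ranged from 658154 to 1166633 per cell with G&T (median 807065), from 818512 to 1287911 with Takara (1069040) and from 624772 to 963816 with NEB (704475). Expression is given as CPM, the reads of a gene per 1000000 reads on genes, either per cell or for the reads of the 11 cells pooled. Pooled values carry 95% Poisson intervals, which cover counting error only, since the reads have no molecular identifiers. For genes with 0 reads a fixed limit of 3 reads was used, which is 0.316 CPM with G&T, 0.256 CPM with Takara and 0.376 CPM with NEB. Folds given as "at least" rest on this limit. The 95% interval at 0 reads reaches higher, to 0.388, 0.315 and 0.463 CPM. The spread over the 11 cells is given as SD and as lowest, median and highest value. All 8 luminal marker genes tested, EPCAM, KRT8, KRT18, KRT19, ESR1, PGR, GATA3 and FOXA1, had reads in at least 6 cells of every protocol. Among 4 markers of other cell types, PTPRC had 2 reads and PECAM1 12 reads in G&T and none elsewhere, VIM lay between 1.26 and 18.1 CPM, and COL1A1 between 10.8 and 12.6 CPM pooled.

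Replication-dependent histone genes are transcribed in S phase, when new DNA must be packaged, and lie in clusters as many near-identical copies without introns. Their mRNAs are the only known metazoan mRNAs that usually end without a poly(A) tail. They are cut a few bases after a conserved stem-loop, which is bound by the stem-loop binding protein SLBP. Variant or replacement histones are made throughout the cell cycle from single genes, mostly with introns and with ordinary polyadenylated mRNAs. The cDNA of all 3 protocols is primed with oligo-dT, which anneals to A-rich sequence.

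The 3′ ends of the members are shown because a stem-loop sets the replication-dependent mRNAs apart from those of the variants other than H2AX. The stem-loop of the genes that held most reads in each family is printed on the strand of the gene, with the stem and loop in capitals and 5 bases on each side, from GENCODE 44 coordinates on GRCh38.
H4C3 (chr6:26104312-26104337, plus strand): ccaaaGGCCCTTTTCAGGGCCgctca
H2BC12 (chr6:27146361-27146386, minus strand): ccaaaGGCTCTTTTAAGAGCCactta
H2AC6 (chr6:26124664-26124689, plus strand): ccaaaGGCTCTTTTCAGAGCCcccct
H1-2 (chr6:26055739-26055764, minus strand): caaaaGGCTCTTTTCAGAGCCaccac
H3C10 (chr6:27810511-27810536, plus strand): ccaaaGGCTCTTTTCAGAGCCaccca
H2AX (chr11:119094893-119094918, minus strand): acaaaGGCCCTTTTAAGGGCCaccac
The stem differs between H4C3 or H2AX and the other 4 genes printed, and the last base of the loop is C in some copies and A in others. A stem-loop of this kind was found within 100 bases after the stop codon in 69 of the 69 replication-dependent genes of the annotation, the 4 without a row included, in 1 of the 7 variants, H2AX, and in 2 of 19843 other protein-coding genes. Over all 19919 protein-coding genes with that window the share was 0.361%. On the opposite strand of the same windows it was found in none of them.

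In contrast, the annotated transcripts of H3-3B and H2AZ1 end shortly after the polyadenylation signal AATAAA, and so do longer transcripts of some replication-dependent genes, such as H2AC6 and H2BC5. The last 30 bases of these transcripts are printed with the signal in capitals.
H3-3B (chr17:75776434-75776463, minus strand): atgagactaaAATAAAatttttgaagttaa
H2AZ1 (chr4:99948088-99948117, minus strand): ggataagttcAATAAAggtcatatcccaaa
H2AC6, extended (chr6:26139087-26139116, plus strand): tAATAAAaggtaatgcaaagggagaggaaa
H2BC5, extended (chr6:26171320-26171349, plus strand): taattAATAAAatctgcggagaattgtaaa
The extended transcript of H2AC6 reaches 14432 bases past its stem-loop and that of H2BC5 12747 bases. H2AX, which has a stem-loop, also has an annotated end 1024 bases further on. Among the variants, AATAAA was found in the last 50 bases of a transcript for H3-3B, H2AZ1 and H1-10. It was not found there for H3-3A, H2AZ2, MACROH2A1 and H2AX. Longer transcripts of 14 of the 65 replication-dependent members had it, so this signal does not separate the variants from them.

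Reads on replication-dependent histone genes were few in every protocol. They made up 0.0382% ± 0.0246 (SD, n = 11 cells) of the reads on genes with G&T, 0.0593% ± 0.0667 with Takara and 0.0720% ± 0.11 with NEB. As summed CPM, the cells of G&T ran from 75.5 to 997 with a median of 337, those of Takara from 137 to 1926 with a median of 280, and those of NEB from 218 to 3998 with a median of 337. The medians lay close together and the 3 ranges overlapped almost entirely, so no difference between protocols stood outside the spread between cells. The 7 variants held more reads, 0.348% ± 0.0593 with G&T, 0.349% ± 0.112 with Takara and 0.921% ± 0.418 with NEB, where the lowest cell had 0.395% and the highest 1.55%.

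The number of different replication-dependent genes with a read differed between the tables. In G&T, 50 of 65 had at least 1 read in the 11 cells (76.9%), against 38 in Takara (58.5%) and 23 in NEB (35.4%). Protein-coding genes at large had the same order, with 71.7% (G&T), 65.3% (Takara) and 49.5% (NEB), so that the replication-dependent share lay slightly above theirs in G&T and below it in Takara and NEB. A single G&T cell held reads of 22.9 ± 10.6 of them (6 to 36), a Takara cell of 16.2 ± 1.40 (14 to 18) and a NEB cell of 6.73 ± 2.28 (2 to 10). Every Takara cell thus stood above every NEB cell, whereas G&T cells were spread from the NEB range to far above the Takara range. In G&T, 20 of the 65 (30.8%) had reads in at least 6 cells, where 49.1% of all protein-coding genes did. In Takara the number was 12 (18.5%), against 50.6% of protein-coding genes, and in NEB it was 5 (7.69%), against 21.7%. At this number of cells the share of replication-dependent genes lay below that of protein-coding genes in each of the 3 tables.

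No read was found on 14 members in any cell: H1-1, H1-6, H2AC1, H2AC4, H2AC11, H2AC15, H2BC1, H2BC6, H2BC10, H2BC11, H3C13, H3C14, H4C7 and H4C13. H1-1 encodes a linker histone mostly known from particular cell types, and H1-6, H2AC1 and H2BC1 encode testis histones. Reads in G&T alone were found on 11 members and in NEB alone on 1, H4C15, whereas no member had reads in Takara alone. H4C15 rests on 1 read. Among the members without reads or with reads in 1 table, H2AC17, H3C14, H3C15, H4C12 and H4C15 share over 50% of their 100-base windows with other genes, so that a count at or near 0 does not show that they were not expressed. All 3 protocols held reads of 27 members, of which 6 were variants.

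**Figure D1:**
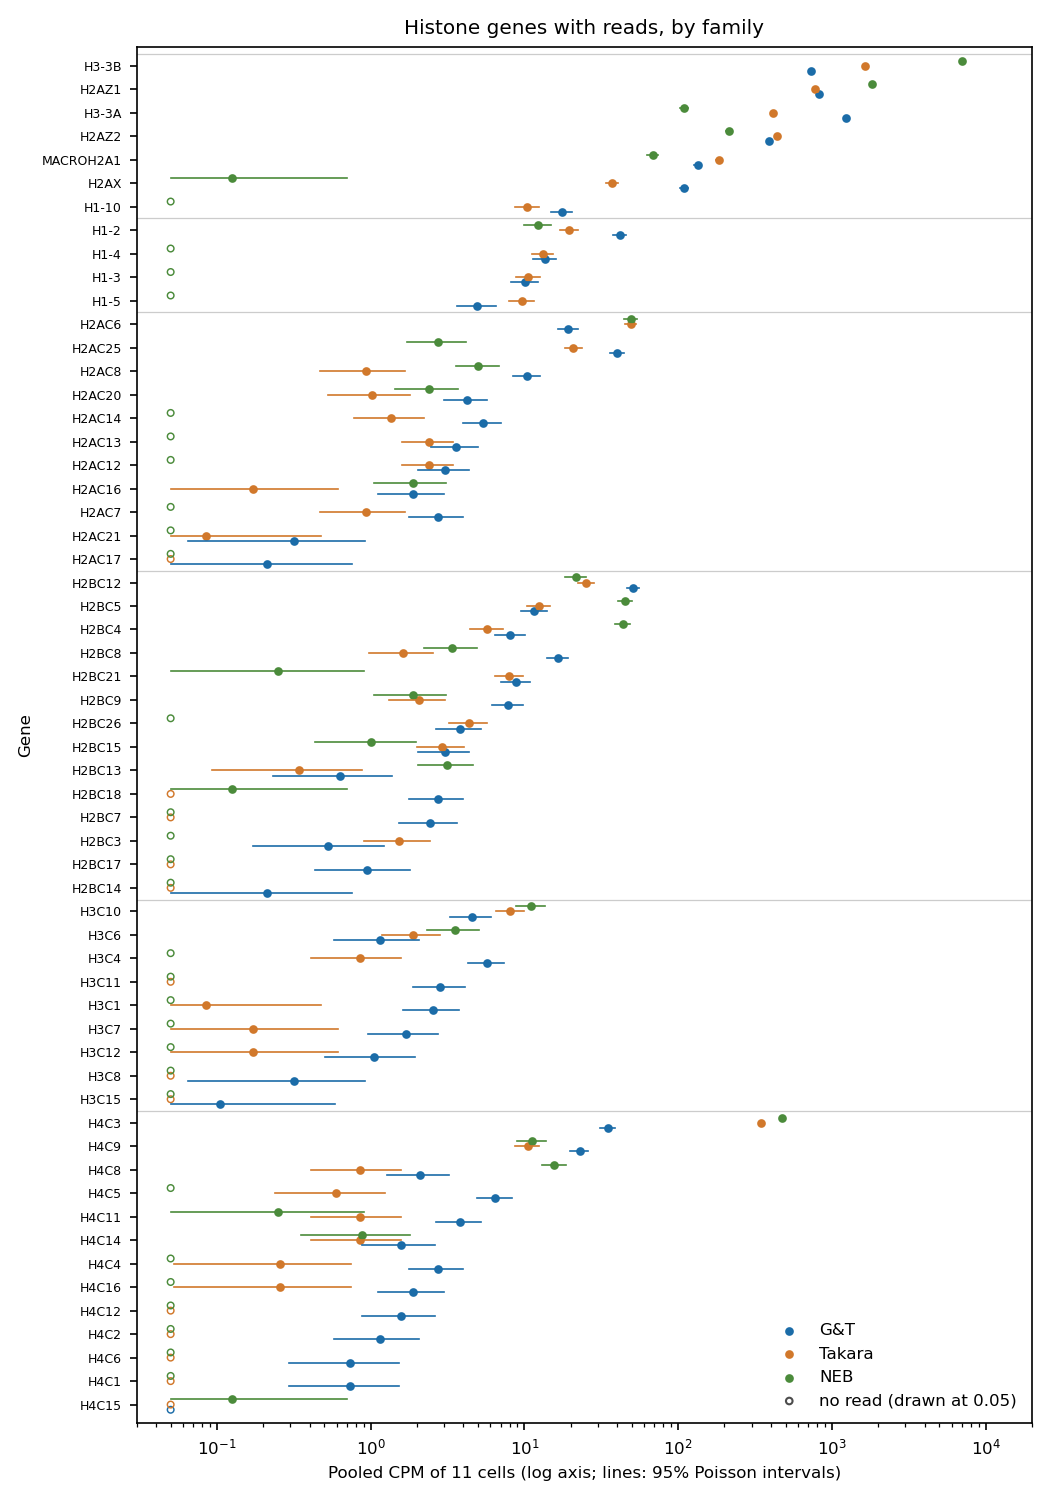
Pooled CPM of the 11 cells of each protocol (log axis) for each histone gene with a read, arranged by family, where points are pooled values, lines are 95% Poisson intervals and open circles mark genes with no read, drawn at 0.05. The variants at the top reach the highest values, H4C3 stands out among the replication-dependent genes in Takara (346 CPM) and NEB (476 CPM), and open circles are most frequent for NEB.

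Among the replication-dependent genes, H4C3 held the largest number of reads in Takara and NEB. H4C3 (ENSG00000197061, chromosome 6, 26103933 to 26104337, 1 exon) encodes histone H4, the partner of H3 in the core of the nucleosome. Its protein of 103 residues is the same as that of 13 other H4C genes, so the copies can be told apart only at the mRNA. In G&T, 7 of 11 cells had H4C3 reads, with a lowest value of 0, a median of 39.4 and a highest value of 85.1 CPM. In Takara all 11 cells had reads, from 20.8 to 1601 CPM with a median of 126, and in NEB all 11 cells had reads, from 15.2 to 3837 CPM with a median of 153. High values were confined to 3 cells, Takara A1 (1518 CPM), Takara E1 (1601 CPM) and NEB E1 (3837 CPM), and no other cell of any protocol exceeded 264 CPM.

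Pooled, H4C3 stood at 34.7 CPM with G&T (95% interval 31.1 to 38.7), 346 CPM with Takara (335 to 357) and 476 CPM with NEB (461 to 492), 9.95-fold and 13.7-fold above G&T. NEB cell E1 alone carried 72.2% of the NEB reads on H4C3. Without the 3 cells named and G&T H1, the cells with the highest sums of replication-dependent reads, pooled H4C3 was 38.7 CPM with G&T, 102 CPM with Takara and 145 CPM with NEB. The log2 ratio, taken with 1 CPM added to both values, was -3.28 for G&T over Takara and ran from -3.46 to -2.62 when each cell was left out in turn. For G&T over NEB it was -3.74 and ran from -3.92 to -2.03, so H4C3 remained lower in G&T. The order of Takara and NEB rested on single cells: the log2 ratio was -0.46, -1.11 without Takara E1 and 1.24 without NEB E1. The sum of all replication-dependent genes without these 4 cells was 309 CPM with G&T, 299 with Takara and 388 with NEB, compared with 379, 567 and 712 with them.

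**Figure D2:**
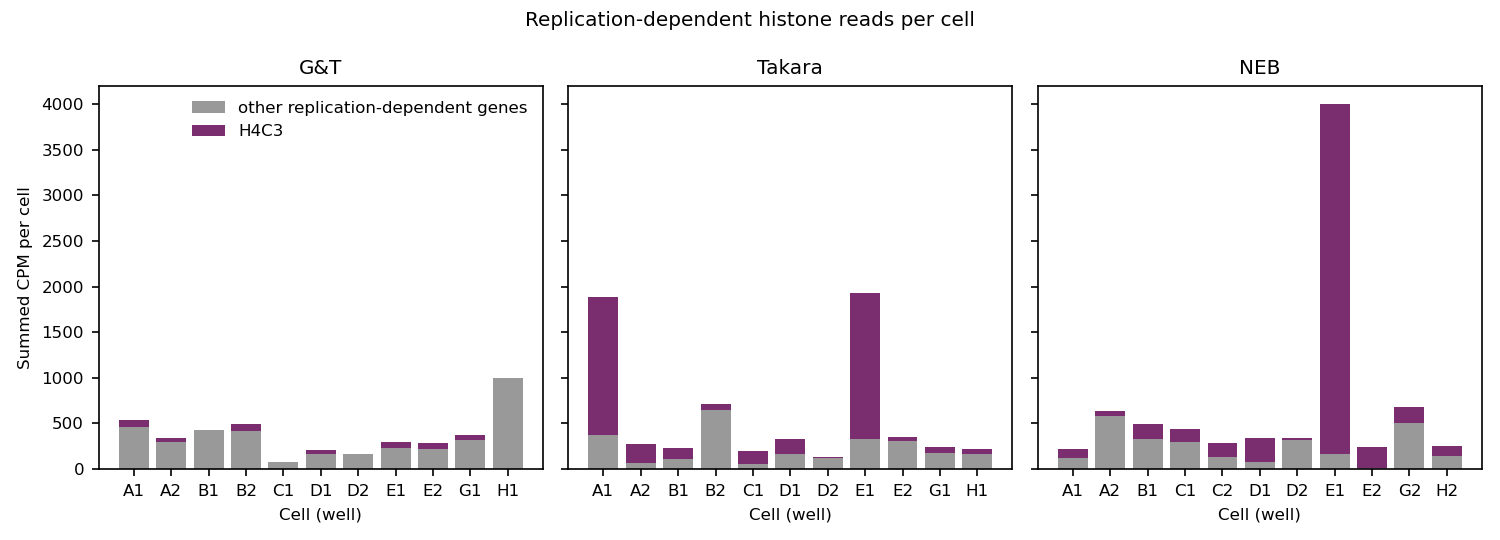
Summed CPM on replication-dependent histone genes in each of the 11 cells of a protocol, named by well, with the part on H4C3 in purple and the other genes in grey. H4C3 makes up most of the tall bars of Takara A1 and E1 and NEB E1, whereas the tallest G&T bar, cell H1 with 997 CPM, holds no H4C3 read.

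The share of H4 reads that fell on H4C3 was 43.3% with G&T, 96.1% with Takara and 94.4% with NEB. H4C9 (chromosome 6, 27139282 to 27139678) had reads in 11 G&T, 11 Takara and 8 NEB cells and took 28.4% of the H4 reads in G&T but 2.92% in Takara. Its pooled level was 22.8 CPM with G&T, 10.5 with Takara and 11.2 with NEB, and the log2 ratio of 1.05 for G&T over Takara fell below 2-fold without any one of G&T B1, E2 or H1 or Takara A1 or C1, at lowest 0.74. H4C8 was found mainly in NEB, at 15.7 CPM against 2.11 in G&T and 0.853 in Takara, from 4 NEB cells of which D2 held 50.4% of the reads. The log2 ratio to NEB was -2.43 for G&T and -3.17 for Takara, and -1.61 and -2.35 without D2. Of the bases of H4C8, 44.7% are overlapped by exons of another gene. H4C5 had 6.42 CPM in 7 G&T cells, 0.597 CPM in 2 Takara cells and no read in NEB, at least 17.1-fold lower than in G&T.

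H2A and H2B form the dimers that flank the H3 and H4 core. H2AC6 (chromosome 6, 26124145 to 26139116) led the H2A genes in Takara, with 62.0% of H2A reads, and in NEB, with 80.3%, whereas H2AC25 led in G&T with 44%. H2AC6 had a median of 0 CPM with G&T (highest 80.9), 31.0 with Takara (highest 261, cell B2) and 0 with NEB (highest 314, cell A2). These levels overlapped fully, and the pooled 49.2 CPM of Takara against 19.2 CPM of G&T, a log2 ratio of -1.32 for G&T over Takara, became -0.56 without Takara B2 and -1.93 without G&T H1. Against NEB, at 49.0 CPM, the ratio of -1.31 became -0.04 without NEB A2 and -1.92 without G&T H1. H2AC25 on chromosome 1 had reads in 9 G&T, 10 Takara and 1 NEB cell, at 39.9, 20.8 and 2.76 CPM. Its log2 ratio of G&T over Takara was 0.91, and 0.03 without G&T H1. The ratio of G&T over NEB was 3.44, and 2.57 without G&T H1, and that of Takara over NEB was 2.54. Without NEB A2, the only NEB cell with reads of it, they were 5.35 and 4.45. H2AC8 had reads in 10, 4 and 1 cells, at 10.3, 0.939 and 5.02 CPM. The H2AC8 ratio of Takara over NEB was -1.63, and 0.96 without NEB C1, the only NEB cell with reads of it.

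H2BC12 (chromosome 6, 27146361 to 27146855) led the H2B genes in G&T (43.1% of H2B reads) and Takara (39.4%), and H2BC5 led in NEB (37.5%), closely followed by H2BC4 (36.3%). H2BC12 was read in 11 G&T cells (6.08 to 216 CPM, median 30.4), 11 Takara cells (4.52 to 58.6, median 20.6) and 7 NEB cells (0 to 67.2, median 11.4). The ranges overlapped. Its pooled levels were 50.8, 25.3 and 21.6 CPM, and the log2 ratio of G&T over NEB, 1.2, was 0.56 without G&T H1, which held 43.1% of the G&T reads. H2BC5, which encodes an H2B differing from that of H2BC12 at 2 of 126 residues, showed the opposite order, at 11.6 CPM with G&T, 12.4 with Takara and 44.9 with NEB. The log2 ratio of G&T over NEB was -1.87 and ran from -2.67 without G&T H1 to -1.21 without NEB C1, and that of Takara over NEB was -1.78, and -1.12 without NEB C1. H2BC4 stood at 8.11, 5.72 and 43.5 CPM and was higher in NEB than in G&T by 5.37-fold and than in Takara by 7.61-fold. The log2 ratio of G&T over NEB was -2.29, and -3.09 without G&T H1. All bases of H2BC4 are overlapped by exons of ENSG00000291336, so its reads cannot be told from those of that gene unless strand was used in counting. H2BC8 was highest in G&T, at 16.4 CPM against 1.62 and 3.39 CPM, with 59.6% of the G&T reads in cell H1. Its log2 ratio of G&T over Takara was 2.73, and 1.68 without that cell, and its ratio of G&T over NEB was 1.99, 0.93 without it and 4.12 without NEB B1.

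H3C genes held the fewest reads of the core families, 189 with G&T, 132 with Takara and 116 with NEB over 11 cells. H3C10 (chromosome 6, 27810051 to 27811300) was read in 3 G&T, 6 Takara and 2 NEB cells and H3C6 in 2, 5 and 1 cells. The pooled levels of H3C10 were 4.53, 8.11 and 11 CPM. Their direction rested on single cells: the log2 ratio of G&T over NEB was -1.12 for H3C10 and 0.61 without NEB H2, and -1.06 for H3C6 and 1.11 without NEB C2. H3C4 had 5.68 CPM with G&T, 0.853 with Takara and no read with NEB, but 96.6% of its bases lie under exons of ENSG00000282988, and without G&T A1 its log2 ratio of G&T over Takara was 0.88 in place of 1.85 and that over NEB 1.77 in place of 2.74.

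H1 genes encode the linker histones that bind the DNA between nucleosomes. H1-2 (chromosome 6, 26055740 to 26056470) was the most read of them in every protocol and had reads in 11 G&T cells (12.1 to 125 CPM, median 32.4), 10 Takara cells (0 to 111, median 9.29) and 3 NEB cells (0 to 64.3, median 0). Pooled, it stood at 41.7, 19.5 and 12.2 CPM, 3.43-fold higher in G&T than in NEB. The log2 ratio of G&T over NEB was 1.70, and 2.53 without NEB A2. The log2 ratio of G&T over Takara, 1.05, lay near the 2-fold line and ran from 0.69 without G&T H1 to 1.70 without Takara A1. H1-3, H1-4 and H1-5 had no read in any NEB cell. H1-3 had 10.1 CPM in G&T and 10.6 in Takara, at least 26.9-fold and 28.1-fold above NEB, and H1-4 had 13.6 and 13.1 CPM, at least 36.1-fold and 34.9-fold above it. H1-3 was read in 6 G&T and 4 Takara cells, with 54.8% of the Takara reads in E1, and H1-4 in 6 and 8 cells, with 48.7% in A1. The log2 ratio of Takara over NEB fell from 3.53 to 2.65 without E1 for H1-3 and from 3.82 to 3.05 without A1 for H1-4.

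**Figure D3:**
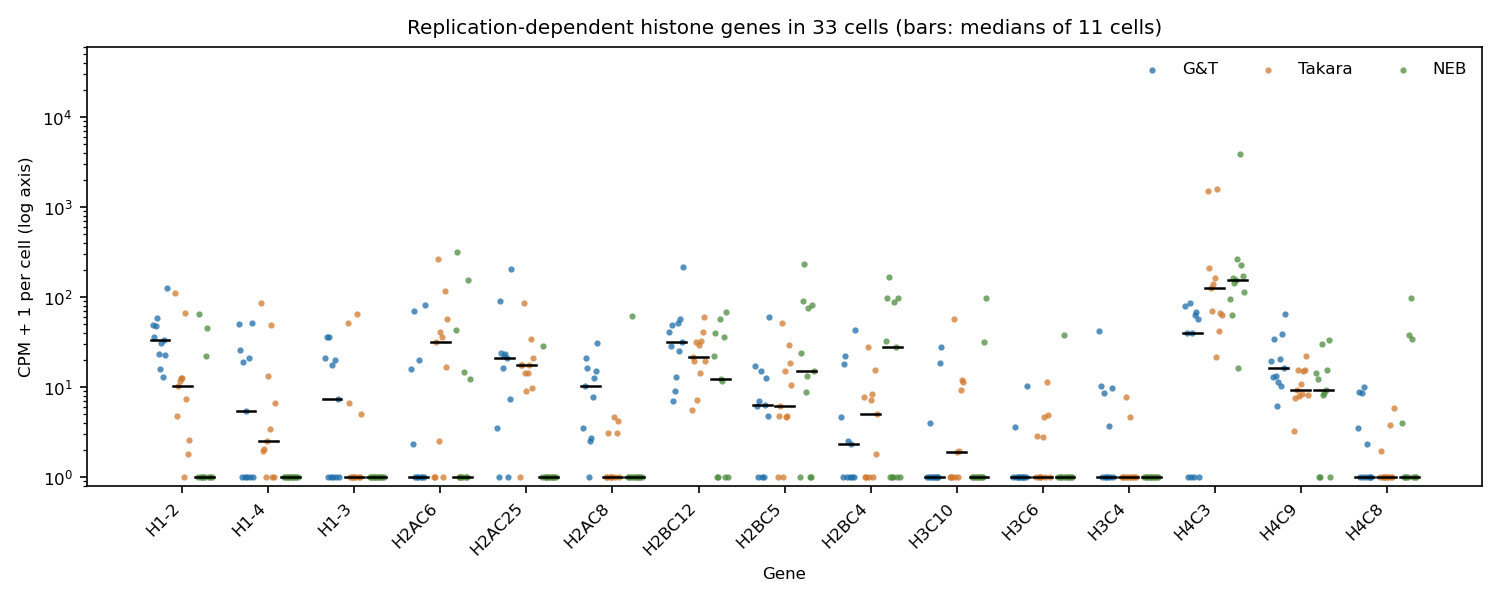
CPM + 1 in each cell (log axis) for the 3 members of each replication-dependent family with the highest summed pooled CPM, with G&T in blue, Takara in orange and NEB in green, 11 points each, and the median as a black bar. Most genes have a median at or near 1, which is no read, in NEB, and H4C3 alone has reads in all 11 NEB cells.

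Reads of a replication-dependent gene were often concentrated in 1 cell. Of the genes with at least 10 reads, 17 of 40 with G&T (42.5%), 9 of 29 with Takara (31.0%) and 13 of 17 with NEB (76.5%) had over 50% of them in a single cell. Over all protein-coding genes with at least 10 reads the shares were 12.4%, 6.81% and 40.3%. These sets were not matched for the number of reads per gene, so whether the concentration is particular to histone genes was not tested. In G&T, cell H1 was the highest for 11 of the 40 genes and A1 for another 11.

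Among the variants, H3-3A, H3-3B, H2AZ1 and H2AZ2 had reads in every cell, with an SD of 0.144 to 0.592 times the mean. H2AX (0.793 with G&T, 0.743 with Takara) and H1-10 (1.07 with G&T, 0.713 with Takara) were less steady. In NEB, H2AX had 1 read and H1-10 none. MACROH2A1 lay between 0.144 and 0.592 with G&T (0.484) and Takara (0.348), but not with NEB (0.928). The replication-dependent H1-2 had 0.776 with G&T, 1.66 with Takara and 1.90 with NEB. H3.3 is the replacement H3 that is put into chromatin outside of replication, and 2 genes, H3-3A (chromosome 1, 226061851 to 226072019, 4 exons) and H3-3B (chromosome 17, 75776434 to 75785893, 4 exons), encode the same protein of 136 residues. It differs from the replication-dependent H3 of H3C1 at 5 of 136 residues. H3-3A had 699 to 2505 CPM with G&T (median 974), 338 to 574 with Takara (median 409) and 59.0 to 200 with NEB (median 106). No cell of a protocol reached into the range of another. Pooled, H3-3A stood at 1233 CPM with G&T (95% interval 1211 to 1255), 411 with Takara (399 to 422) and 109 with NEB (102 to 117). It was 11.3-fold higher in G&T than in NEB and 3.76-fold higher in Takara than in NEB.

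H3-3B went the other way, with 299 to 1506 CPM with G&T (median 729), 551 to 2619 with Takara (median 1567) and 3176 to 10981 with NEB (median 5539). Each NEB cell lay above each cell of the other protocols, whereas G&T and Takara overlapped. The pooled levels were 729, 1644 and 7061 CPM, 9.68-fold higher in NEB than in G&T and 4.29-fold higher than in Takara. H3-3B accordingly made up 40.4% ± 15.7 (SD, n = 11 cells) of the H3.3 reads of a G&T cell, 77.3% ± 9.13 of those of a Takara cell and 98.3% ± 0.529 of those of a NEB cell, where it ran from 97.4% to 99.4%. Together the 2 genes reached 1962 CPM with G&T, 2055 with Takara and 7170 with NEB. Of the 100-base windows of H3-3A, 32.1% occur in processed pseudogenes. The pseudogene H3P6 had 36.2 CPM with G&T, 59.7 with Takara and 18.2 with NEB. The part of shared sequence in the differences of H3-3A was not tested.

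**Figure D4:**
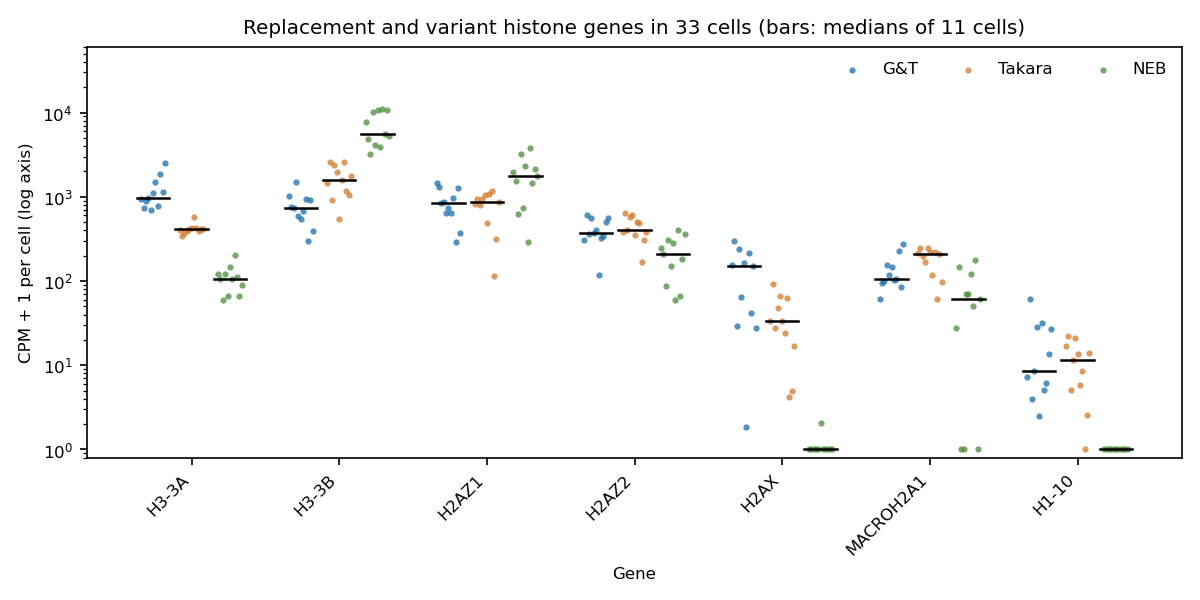
CPM + 1 in each cell (log axis) for the 7 variant histone genes, with G&T in blue, Takara in orange and NEB in green, 11 points each, and the median as a black bar. H3-3A is highest in G&T and H3-3B highest in NEB, with Takara between them, and the NEB points of H2AX and H1-10 lie at 1, which is no read, apart from 1 cell for H2AX.

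H2A.Z is a variant of H2A found at promoters, and its 2 genes encode proteins that differ at 3 of 128 residues. H2AZ1 had 288 to 1437 CPM with G&T, 112 to 1185 with Takara and 287 to 3837 with NEB, and H2AZ2 had 117 to 614, 167 to 632 and 57.7 to 403 CPM. The ranges overlapped for both genes. Pooled H2AZ1 stood at 820, 775 and 1819 CPM and H2AZ2 at 390, 438 and 214 CPM. H2AZ1 made up 66.0% ± 13.7 of the H2A.Z reads of a G&T cell, 61.5% ± 9.31 in Takara and 88.6% ± 4.00 in NEB. The H2AZ1 ratio of G&T over NEB, a log2 value of -1.15, was -0.98 without NEB E1. The H2AZ2 ratio of Takara over NEB, 1.03, ran from 0.93 to 1.16 and passed below 1 without any one of 3 Takara (A2, B2 or C1) or 4 NEB cells (B1, C2, D2 or E2).

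H2AX (chromosome 11, 119093874 to 119095465, 1 exon), the H2A variant phosphorylated at DNA breaks, was nearly missing from NEB. It had 0.857 to 294 CPM in G&T cells (median 148) and 3.15 to 90.7 in Takara cells (median 32.8), in all 11 cells of both. In NEB it had 1 read, in cell D1. Pooled, it stood at 110 CPM with G&T (95% interval 103 to 117) and 37.2 with Takara (33.8 to 40.9), against 0.125 with NEB. With 1 read in NEB, the ratio to it was 875 in G&T (exact conditional interval 157 to 34576) and 297 in Takara (53.0 to 11746). H1-10, a linker histone variant on chromosome 3, likewise had reads in 11 G&T cells (1.5 to 60.3 CPM) and 10 Takara cells (0 to 21.5 CPM) but none in NEB. It was at least 46.4-fold higher in G&T and at least 27.7-fold higher in Takara. An antisense gene, H1-10-AS1, overlaps 22.8% of its exonic bases.

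MACROH2A1 encodes macroH2A, an H2A variant with a large additional domain. It had 59.5 to 273 CPM with G&T, 60.9 to 247 with Takara and 0 to 178 with NEB, where 8 cells had reads. Its pooled levels were 134, 183 and 68.2 CPM, with 2.69-fold more in Takara than in NEB.

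For the members as a group, pooled ratios were compared with those of all genes that had at least 1 CPM in either protocol of a pair. Of the 65 replication-dependent members, 40 reached 1 CPM with G&T, 23 with Takara and 18 with NEB. A member that passed only through G&T could only come out higher there. The counts and medians in favour of G&T were thus partly set by this filter, which was applied to all genes. The shares of all genes were not matched for GC content, and counts among genes of high GC content are given further below. Between G&T and Takara, 22 of 48 members were at least 2-fold higher in G&T, where 25.7% of all 14658 genes were, and 3 were higher in Takara, where 17.0% were. The 3 were H3-3B, H2AC6 and H4C3. The median log2 ratio was 0.98 for the 41 replication-dependent members, 0.08 for the 7 variants and 0.16 for all genes. The variant median lay near 0 and its sign rested on single cells, since it ran from -0.02 without Takara E2 to 0.18 without G&T E2. With the 5 members that had no read in 1 of the 2 protocols set to the limit of 3 reads, and no CPM added, the replication-dependent median was 1.30. The cells of the 2 protocols did not overlap for 1 member, H3-3A, and for 1.93% of all genes.

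Between G&T and NEB, 31 of 48 members were at least 2-fold higher in G&T (48.7% of all 14795 genes) and 10 in NEB (19.5%). Those higher in NEB were H3-3B, H2AZ1, H2AC6, H2BC4, H2BC5, H2BC13, H3C6, H3C10, H4C3 and H4C8. The median log2 ratio was 1.61 for 41 replication-dependent members, 0.96 for the variants and 0.92 for all genes, and the replication-dependent median was 2.16 with the 19 members without a read in 1 protocol at their limit. Cells did not overlap for H3-3A, H3-3B and H1-10, and for 4.34% of all genes.

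Between Takara and NEB, 15 of 34 members were at least 2-fold higher in Takara (43.7% of all 13532 genes) and 8 in NEB (24.3%), near the shares of all genes. The median log2 ratio was 0.08 for 27 replication-dependent members, 1.41 for the variants and 0.56 for all genes, and 0.12 for the replication-dependent members with 8 of them at their limit. The sign of the median of 0.08 was not stable, since it was -0.04 without NEB D1. Cells did not overlap for H3-3A, H3-3B and H2AX, and for 10.0% of all genes. The G&T cells enter both of the comparisons with G&T, and these are not independent of each other.

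The annotated 3′ ends were set beside these values. Of the 65 replication-dependent members, 17 have an annotated transcript that ends at least 100 bases past the stem-loop and 48 have none. In NEB, 12 of the 17 had reads (median level 1.85 CPM per kb of transcript), against 11 of the 48 (median 0). In Takara the numbers were 12 of 17 (median 3.57 CPM per kb) and 26 of 48 (0.253), and in G&T 13 of 17 (5.15) and 37 of 48 (3.67). Genes with an extended transcript were thus read more often than the others in NEB and Takara, and at nearly the same share in G&T. Levels per kb used the length of the main annotated transcript, such as 519 bases for H2AC6, whereas counts can include reads on the extended part. Both the share with reads and the level can therefore be raised for the 17 genes. Some genes without one had high levels per length: H4C3 had the highest of any replication-dependent gene in NEB (1175 CPM per kb) and Takara (854), and H2BC12 the highest in G&T (103), with 51.0 in Takara and 43.6 in NEB. The genes with an extended transcript held 28.6% of the replication-dependent reads with G&T, 20.3% with Takara and 24.3% with NEB. The median GC content of the transcripts was 57.8% for replication-dependent members and 49.1% for protein-coding genes, and it was highest among the variants for H1-10 (68.6%) and H2AX (66.8%). Over protein-coding genes, GC content and the log2 ratio of G&T over NEB had a rank correlation of 0.579 (n = 11773 genes), and over the members one of 0.264 (n = 48). For Takara over NEB the values were 0.599 (n = 11340) and 0.312 (n = 34), and for G&T over Takara -0.116 (n = 11938) and 0.130 (n = 48). H3-3A and H3-3B, which moved in opposite directions, had nearly the same GC content, 42.8% and 43.1%. The part of GC content and of 3′ ends in the differences between protocols was not tested.

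The promoters of the members share elements that the choice by symbol did not use. Short motifs were searched on both strands in RefSeq windows on GRCh38 that hold the stretch before each gene start and the first bases of the gene, which were found for 60 of the replication-dependent members. The letters CCAAT were in 50 of them (83.3%, against 35.7% of all 27305 windows), TATAAA in 39 (65%, against 12%) and the octamer ATTTGCAT, the element known from H2B promoters, in 26 (43.3%, against 1.80%). None of the 3 motifs contains another. Of the 7 variant windows, 5 had CCAAT (71.4%), 4 TATAAA (57.1%) and 1 the octamer (14.3%). CCAAT and TATAAA were thus not particular to the replication-dependent members. The octamer was in 14 of 18 H2B and 11 of 14 H2A windows and in no H4 or H1 window. CCAAT was in all H1, H2A, H2B and H3 windows and in 3 of 13 H4 windows. Some H2A and H2B genes lie head to head, such as H2AC7 (minus strand, to 26199293) and H2BC7 (plus strand, from 26199516). The same site can then be counted for both, so the H2A and H2B counts are not independent. A match of letters is a description of the window only.

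To set histone levels beside the cell cycle, the cells' summed CPM was taken over 30 S phase genes (such as PCNA, the sliding clamp, and MCM2, of the replicative helicase) and over 24 G2 and mitosis genes (such as TOP2A and CCNB1). The correlations are over the 11 cells of a protocol, which share a library and a denominator, and are given without p-values. The replication-dependent sum had no common relation to the S phase list. Spearman's rho was -0.355 for the G&T, 0.127 for the Takara and -0.127 for the NEB cells, and Pearson's r of log2(CPM + 1) was -0.515, 0.385 and -0.0575. With each cell left out in turn rho ran from -0.527 to -0.139 (G&T), from -0.139 to 0.261 (Takara) and from -0.321 to 0.127 (NEB). Takara A1 had both a high replication-dependent sum (1886 CPM) and the highest S phase sum of its protocol (11502 CPM), whereas NEB E1, with 3998 CPM on replication-dependent genes, had the highest sum on the G2 and mitosis list (30770 CPM). Taken by itself, H4C3 had a rho with the S phase list of 0.256 (G&T), 0.536 (Takara) and 0.527 (NEB). With the G2 and mitosis list H4C3 had 0.572, 0.555 and 0.564. The NEB value was 0.2 without the 2 cells farthest from the median of that list. In G&T, H4C3 also had a rho of -0.689 with the reads of a cell. Other single genes differed. With the S phase list, H2BC12 had -0.745 (G&T), -0.6 (Takara) and 0.195 (NEB), and H4C9 had -0.745, -0.555 and 0.404. H1-2 had -0.518 in G&T and positive values in Takara and NEB.

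Some of the variants, but not all, were higher in cells with a higher sum on the G2 and mitosis list. H2AZ1 had a rho with this sum of 0.80 over the G&T, 0.809 over the Takara and 0.945 over the NEB cells (Pearson's r of log2(CPM + 1) 0.70, 0.875 and 0.867), and with single cells left out rho stayed between 0.745 and 0.964 over the 3 protocols. H3-3B had 0.755, 0.855 and 0.964 (r 0.691, 0.804 and 0.930). H2AX had 0.945 in G&T and 0.882 in Takara (r 0.906 and 0.872), although in G&T it also had a rho of -0.882 with the reads of a cell. H3-3A differed between tables, its rho being -0.600 (G&T), -0.182 (Takara) and 0.827 (NEB), and so did MACROH2A1 (-0.364, 0.591 and -0.229). H2AZ2 had 0.473, 0.918 and 0.673. In G&T the number of replication-dependent genes detected had a rho of 0.806 with the G2 and mitosis list and of -0.783 with the reads of a cell. The part of depth in these relations was not tested.

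**Figure D5:**
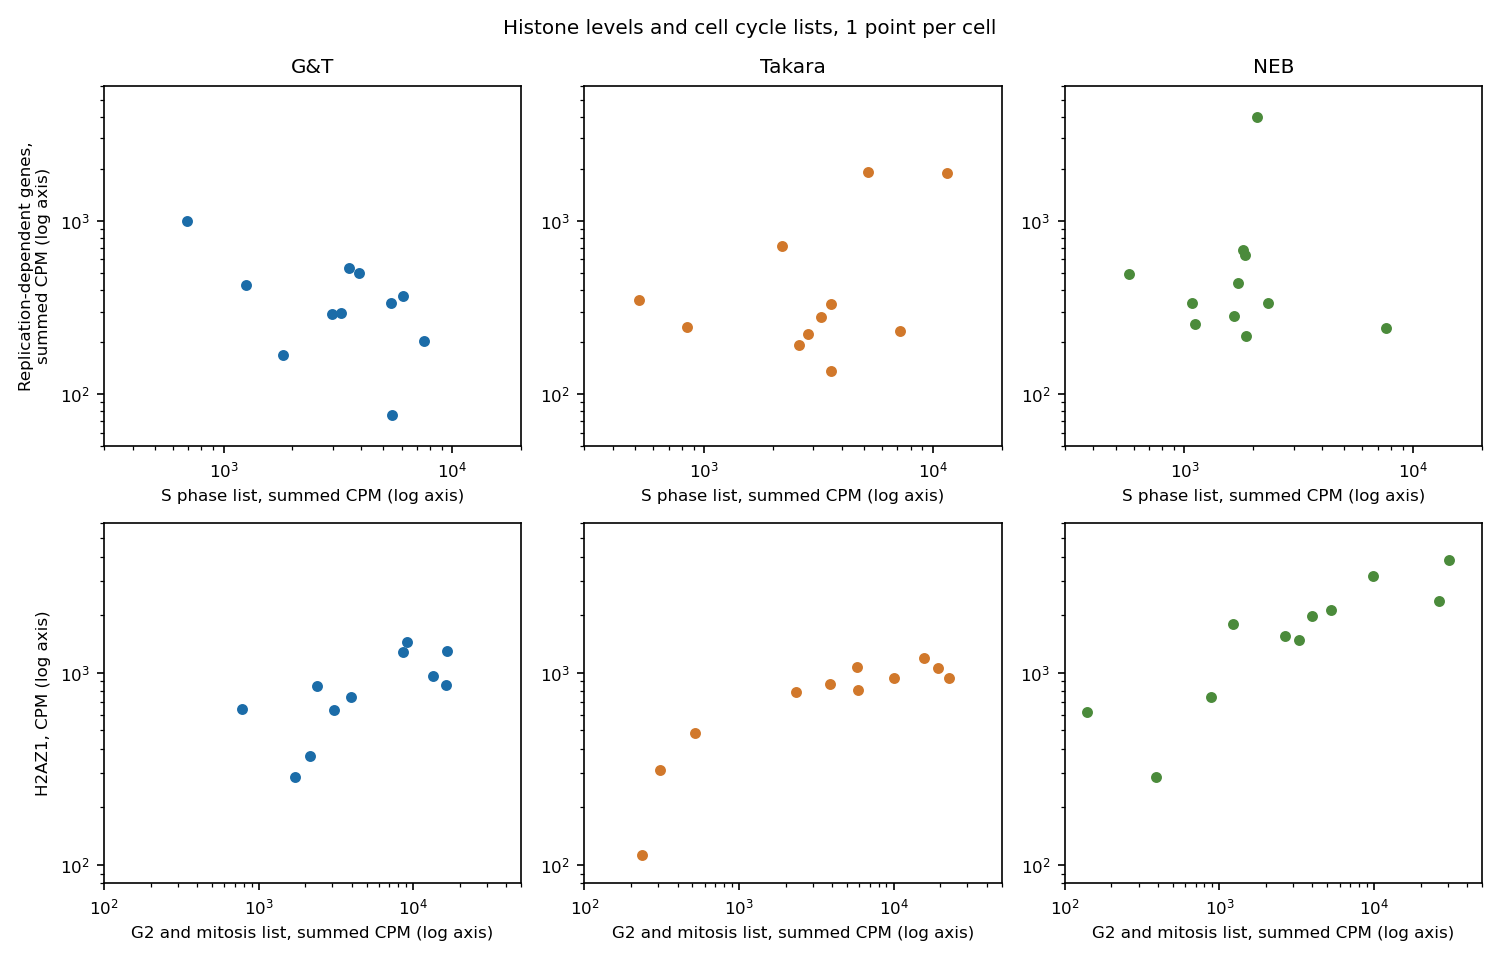
Each point is a cell. The upper row plots the summed CPM of replication-dependent histone genes against the summed CPM of the S phase list, and the lower row plots the CPM of H2AZ1 against the summed CPM of the G2 and mitosis list, for G&T, Takara and NEB with all axes logarithmic. The upper panels share no trend (rho -0.355, 0.127 and -0.127), and in the lower panels cells with a higher list sum have more H2AZ1 (rho 0.80, 0.809 and 0.945).

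Genes that make or carry histones were listed for comparison, and their counts are to be read against the shares of all genes given above. Of 15 genes for transcription and 3′ processing of histone mRNA, 6 were at least 2-fold higher (25.7% of all genes) and 4 lower (17.0%) in G&T than in Takara. Against NEB, 6 of the 15 were higher (48.7%) and 1 lower (19.5%) in G&T, and 5 of the 13 compared were higher (43.7%) and 3 lower (24.3%) in Takara. SLBP, which binds the stem-loop, had 89.6 CPM in 11 G&T cells, 147 CPM in 11 Takara cells and 24.2 CPM in 4 NEB cells. SYMPK, a scaffold of the cleavage complex, had 39.2 and 5.97 CPM in G&T and Takara and no read in NEB, whereas ERI1, the exonuclease that trims histone mRNA ends, was highest in NEB (15.9, 24.5 and 67.5 CPM). NPAT, the coactivator of histone transcription, was detected in 9, 9 and 5 cells, at 27.7, 11.9 and 28.5 CPM.

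Of 20 histone chaperones and exchange factors, 19 were compared between G&T and each of the other protocols, and 8 were higher and 3 lower in G&T than in Takara and 10 higher and 3 lower than in NEB. Of 18 compared between Takara and NEB, 9 were higher and 5 lower in Takara. The counts against NEB lay near the shares of all genes. ANP32E, the chaperone that removes H2A.Z, had 145 CPM with G&T and 124 with Takara but 3809 CPM with NEB, where it was read in all 11 cells (797 to 8800 CPM). CHAF1A, the large subunit of the replication-coupled chaperone CAF-1, had 46.6 and 19.7 CPM and 1 read in NEB. ASF1A, an H3 and H4 chaperone, had 196 CPM with NEB against 22.8 (G&T) and 29.4 (Takara), while its paralog ASF1B had 5.77 CPM against 67.2 and 70.6. ATRX, which works with DAXX to deposit H3.3, had 120 CPM with G&T, 32.9 with Takara and 317 with NEB. Of 14 other histone genes listed, 4 had reads in each protocol, and H2AJ, a replication-independent H2A gene, stood at 603 CPM with G&T, 168 with Takara and 15.4 with NEB.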

How the data were processed

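Raw read counts per gene and cell, as deposited by the authors, were used for 40 T47D cells. The authors trimmed reads in 2 rounds with Trim Galore, aligned them to GRCh38 with STAR and took its reads per gene. The annotation release and the strand setting are not given in the sources used here. Cells that failed the study's quality thresholds (G&T C2 and F1, Takara C2 and F1, NEB B2, F1 and F2) were left out, as were the rows for 92 spike-ins and 4 kinds of reads not assigned to a gene, and 1 gene is not reported here. Gene types, lengths and ends came from GENCODE 44, which holds 56104 of the 60279 listed genes, and promoters from RefSeq (GRCh38).

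CPM were computed over reads on genes. Log2 ratios used pooled reads with 1 CPM added, genes with at least 1 CPM in either protocol and a 2-fold threshold. No test was made. The members, gene lists and named genes were chosen with earlier results of these data known. Named were the variants, the 3 members of each family with the highest summed CPM, the 3 largest ratios per pair and direction with reads in at least 6 cells of the higher protocol, members without reads, and supply genes past 2-fold. The examples of H1-5 and the tables of GC content and of single cells were chosen after values were seen. Steps were tested on simulated data. Alternatives covered cells, denominators, detection, depth, pseudocount, filter, fold, pooling and TMM scaling (edgeR 4.0.16). Python 3.11.15, numpy 2.4.6, pandas 2.3.3, scipy 1.17.1 and R 4.3.3 were used.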

Additional observations from a re-analysis of the deposited data

Results flagged for a closer look

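Reads on histone genes were also present in the cells that were removed, outside the comparisons above, and these are listed where they exceeded the limit of 3 reads. G&T cell C2 held 777 reads on replication-dependent and 1682 on variant histone genes, and G&T cell F1 held 109 and 1262. NEB cell B2 held 368 replication-dependent and 569 variant reads, and NEB cell F2 held 131 and 5045. NEB cell F1, with 1421 reads on genes in all, held 9 variant reads. In G&T C2 the replication-dependent genes took 0.11% of the reads on genes, slightly above the highest kept G&T cell, H1 (0.0997%).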

How the results depend on the processing

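No paired analysis was possible because no test was made and wells with the same name on different plates hold different cells. Of the summary values recomputed with other settings than leaving out a cell, 97 moved by less than the spread or by less than 1.5-fold, 12 moved further and 5 changed sign. The variant share in G&T was 0.417% without mitochondrial genes. Replication-dependent genes detected per Takara cell were 9.82 with at least 5 reads and 13.8 over all deposited cells. At 4-fold in place of 2-fold, 3 members were higher and 1 lower for G&T over Takara, 14 and 4 for G&T over NEB, and 8 and 3 for Takara over NEB. The replication-dependent median log2 ratio of G&T over NEB was 3.65 with 0.1 CPM added. The variant median of G&T over Takara, 0.08, was -0.0328 over all deposited cells. Rank correlations with the S phase list turned to 0.0167 (G&T), -0.0333 (Takara) and 0.233 (NEB) without the 2 cells farthest from the median of that list, to -0.0455 (Takara) and -0.536 (NEB) without H4C3, and to a Pearson value of 0.385 in Takara. Their causes were not tested.

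With each cell left out in turn, members higher in Takara than in G&T numbered 2 to 5 (5 without G&T B2 or H1). The variant median of G&T over Takara ran from -0.0232 to 0.183 and was below 0 without Takara E2, Takara G1 (-0.0189) or G&T A1 (-0.0223). The replication-dependent median of Takara over NEB ran from -0.0427 to 0.52 and was below 0 without NEB D1, D2 (-0.0010) or E2 (-0.0145). The rank correlation in Takara ran from -0.139 (without A1; -0.0667 without E1) to 0.261, and in NEB from -0.321 to 0.127 (without E2). Of the 45 ratios of named genes past 2-fold, 3 turned in sign: H3C10 (-2.01 to 0.61) and H3C6 (-1.87 to 1.11) in G&T over NEB and H2AC8 (-1.85 to 0.96) in Takara over NEB. Of the 27 under 2-fold, 15 did, such as H4C3 (-1.11 to 1.24), H3C10 (-1.43 to 1.33), H3C6 (-1.09 to 1.52) and H2BC8 (-0.94 to 1.39) in Takara over NEB. Leaving out the cells with the highest replication-dependent sums was chosen after seeing the data. TMM scaling shifted the median log2 ratio of all genes by -0.0555, -0.0855 and -0.0350. Members with few reads are limited by depth, and a gene without reads may lie below 0.256 to 0.376 CPM.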
